A study of Mus musculus with 18 samples.

Results

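RAD21 peaks of mouse splenic B cells were examined at the transcription start sites of protein-coding genes. Peaks of the 3 pooled peak lists (resting cells, 48 h and 96 h of stimulation) that shared at least 1 bp were merged into 15705 sites, and a site was kept when its centre lay within 1 kb, on either side, of an annotated protein-coding start of the mm9 genome. This left 989 sites, 6.30% of all sites (exact 95% interval 5.92% to 6.69%), while the window around the 46015 annotated starts covered 2.22% of the assembled chromosomes. The 989 sites touched 1002 of 22359 protein-coding genes (4.48%).

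The study followed RAD21 by chromatin immunoprecipitation and sequencing (ChIP-Seq) in B cells of C57BL/6 mice (C57BL/6J in the study's methods), 8 to 10 weeks old, with no genetic change in any group. Cells were left resting (0 h) or were cultured with lipopolysaccharide (LPS) and IL-4, which drives the immunoglobulin switch to IgG1, for 48 h or 96 h. Each time point had 3 replicates, each from B cells pooled from 12 mice, and 9 input libraries without antibody served as background for peak calling. The 96 h cells were enriched for IgG1-positive cells before fixation, so that time in culture and this purification cannot be told apart. The files list peaks only and carry no expression values, so the B cell label could not be checked against marker genes.

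RAD21 is a subunit of cohesin, the ring complex that holds sister chromatids together and that also extrudes and anchors chromatin loops. Loop-forming cohesin is halted by the zinc finger protein CTCF, which recognises a long, directional DNA motif. Transcription starts are places where cohesin can be held at CTCF sites that happen to lie in the promoter, and where loops can bring distant enhancers to a gene. A bidirectional promoter is a short stretch that serves 2 genes pointing away from each other.

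One library stood apart from the others before any comparison was made. The second 48 h replicate listed 5254 peaks with a median width of 68 bp at starts and 65 bp elsewhere. Only 3.59% of its peaks away from starts held the motif described below, compared with 84.6% to 94.9% in the other 8 replicates. These motif shares cover only chromosomes not used to learn the motif. The replicates listed 821 to 8579 peaks in all. Several of the results that rest on the 48 h time point, but not all, are therefore given with and without this library.

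The DNA under the sites was read first, because most of the sites held the same sequence. A 20 bp motif was learned from 486 strongly supported sites that were not at a start, and its most frequent letters read NNNNNGNGCCCCCTNGTGGN, which has the core of the CTCF motif. It was searched on both strands within 100 bp of each site centre. Of the 989 sites, 757 (76.5%, interval 73.8% to 79.2%) held a match, compared with 8.87% of equally long windows centred on the most upstream start of every gene. The score needed for a match was set so that 5% of control windows beside the training sites reached it (5.04%). That share was therefore fixed in advance. The matches lay at a median of 18 bp from the centre of the site. Below are the matches at the 6 sites found in the most replicates and at 2 further sites of bidirectional promoters, shown because they are the letters at the centre of the best supported sites. The match is in capitals, with 5 bases of mm9 sequence on each side, in the orientation of the motif and on the strand named.

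2610002J02Rik (chr4:154623526-154623555, plus strand): tggacTTTTGCTGCCACCAAGTGATgggct
Eif2c2 (chr15:73015874-73015903, plus strand): cgtgaCCACACCGCCACCTCCCGGCgcgac
Atp6v1g2 (chr17:35373464-35373493, plus strand): ctggtCTCTGCTGCCCTCGGGCGGCcgttt
A630001G21Rik (chr1:87633244-87633273, plus strand): aaagtCTATCCTGACCTCTGGTGGTagcac
Ccdc110 (chr8:47020293-47020322, plus strand): tgatcATAGCGCGCCCTCTGGTGGCcacag
Ccin (chr4:43995434-43995463, plus strand): tgaccCTGCAGCGCCACCGTGCGGCcgaag
Dnajc12 (chr10:62845633-62845662, plus strand): acggtGTTGGACGCCACCTAGAGGTgctga
Entpd1 (chr19:40686898-40686927, minus strand): cctctGCCAGCTGCCATCTAGCGGCgggat

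The site found in the most replicates lay upstream of 2610002J02Rik, at chr4:154623325-154623706, 583 bp before the start of the gene in intergenic DNA. It was the only one of the 989 sites with a peak in all 9 replicates. The deposited score of a peak has no named statistic, so it was used only as a percentile rank within its own list (100 is the highest). By that rank the peak stood at 99.95, 100 and 99.86 in the resting replicates, at 99.6, 28.6 and 99.4 in the 48 h replicates, and at 99.6, 100 and 99.99 in the 96 h replicates. All replicates but the second of 48 h thus placed it among the highest peaks of their list.

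Another 16 sites had a peak in 8 replicates, and 11 of them are described here. The site upstream of Eif2c2, the gene of Argonaute 2 in small RNA silencing, lay 514 bp before the start and had percentiles of 96.4, 91.0 and 98.3 in resting cells, 75.6 and 40.3 in 48 h replicates 1 and 3, and 97.0, 98.001 and 99.4 at 96 h. The site 60 bp upstream of a start of Atp6v1g2, a subunit of the vacuolar proton pump, ranked at 96.4, 55.1 and 94.7 in resting cells, at 94.0 and 28.6 in 48 h replicates 1 and 2, and at 99.5, 96.1 and 96.6 at 96 h. The lowest rank of each of these 3 sites was in a 48 h replicate. The sites near A630001G21Rik, Ccdc110, Ccin (calicin of the sperm head), Fam19a2, Slc39a13 (the zinc transporter ZIP13), Rhof, Chd9 (a chromodomain helicase) and Amz2 had peaks in every replicate except the second of 48 h. The site upstream of Snx18, a sorting nexin of membrane traffic, was listed in that replicate, at percentile 11.6, and was missing from the first of 48 h.

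**Figure D1:**
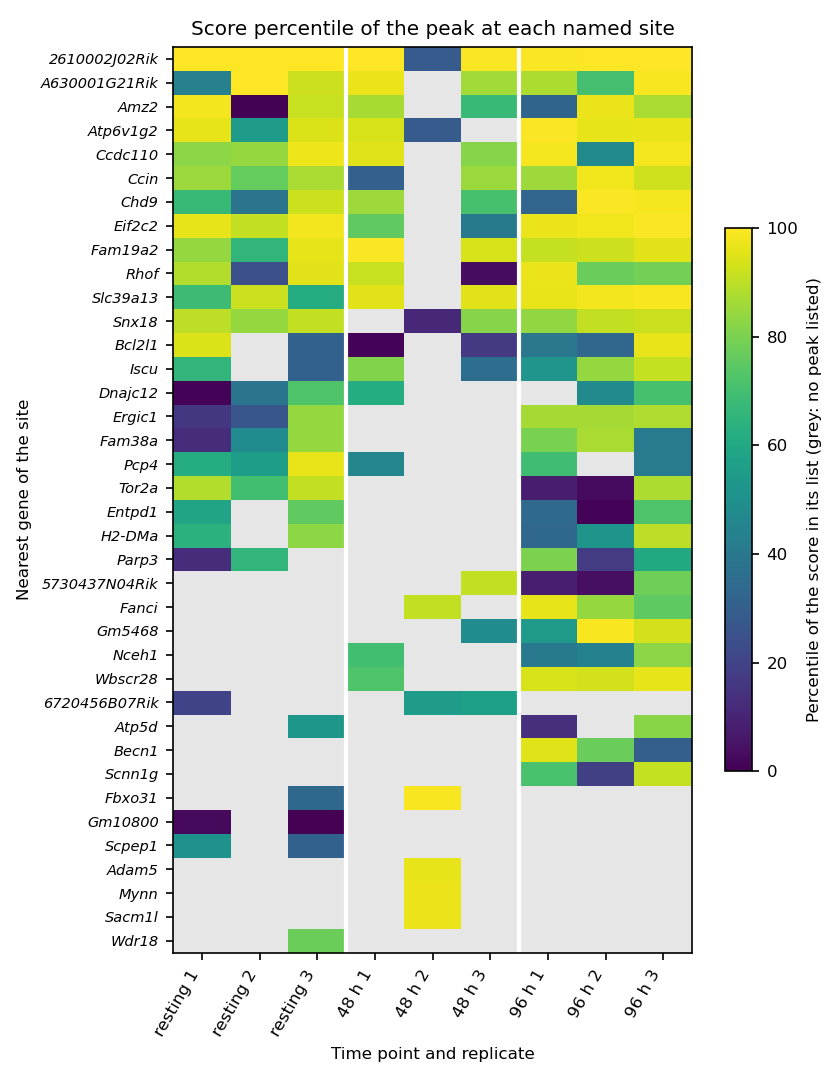
Each row is a named site, labelled with its nearest gene, and each column a replicate; the colour is the percentile rank (0 to 100) of the peak's score in that replicate's list and grey marks no listed peak. The uppermost row, 2610002J02Rik, is filled in all 9 columns, and the second 48 h replicate is grey for most of the other well supported sites.

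Support among replicates was uneven over the 989 sites. A peak was listed in at least 1 replicate at 710 sites (71.8%), in at least 2 at 402 sites (40.6%), in at least 3 at 238 sites (24.1%) and in at least 6 at 66 sites (6.67%), and 279 sites came from a pooled list alone. At the sites away from starts, 76.4% had at least 1 replicate and 38.5% at least 2. Within each replicate, the percent of sites at starts that had a peak was compared with that of the other sites. The mean difference over the 9 replicates was -1.83 percentage points (exact two-sided sign-flip test, p = 0.531), and it was below 0 in 7 of 9. Without the second 48 h replicate, which alone had -17.6, the mean was 0.149 (exact sign-flip p = 0.945). Score rank and width were compared in the same way. The mean difference in score percentile between peaks at starts and other peaks was -1.76 (SD 5.83, n = 9, exact sign-flip p = 0.391), but it turned to 6.73 with lists of equal length (exact sign-flip p = 0.0156). The median width of peaks at starts differed from that of the others by -0.778 bp (SD 5.85, n = 9, exact sign-flip p = 0.75).

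The sites lay mostly on the upstream side. Of the 989 centres, 703 (71.1%, interval 68.1% to 73.9%) were upstream of the nearest start, whereas 48.8% of the base pairs in the window were. The distance had a median of 320 bp without regard to side. The 200 bp just before a start held 290 sites (29.3%) in 11.3% of the base pairs. The first 100 bp after a start held 52 sites (5.26%) in 6.17% of the base pairs, and the next 100 bp held 20 sites (2.02%) in 5.45%. The upstream excess was seen in every replicate. In the 9 replicates 65.4% to 81.6% of the peaks at starts were upstream, on average 26.9 percentage points above the base-pair share (exact two-sided sign-flip test, p = 0.00391, higher in 9 of 9). That p is the smallest that 9 replicates allow. The upstream share was 76.4% ± 1.85 in resting cells, 74.5% ± 8.28 at 48 h and 76.2% ± 3.13 at 96 h (SD, n = 3 each), and no difference between time points was detected (F, exact permutation test, p = 0.943). Without the second 48 h replicate the same exact permutation test gave p = 0.539.

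**Figure D2:**
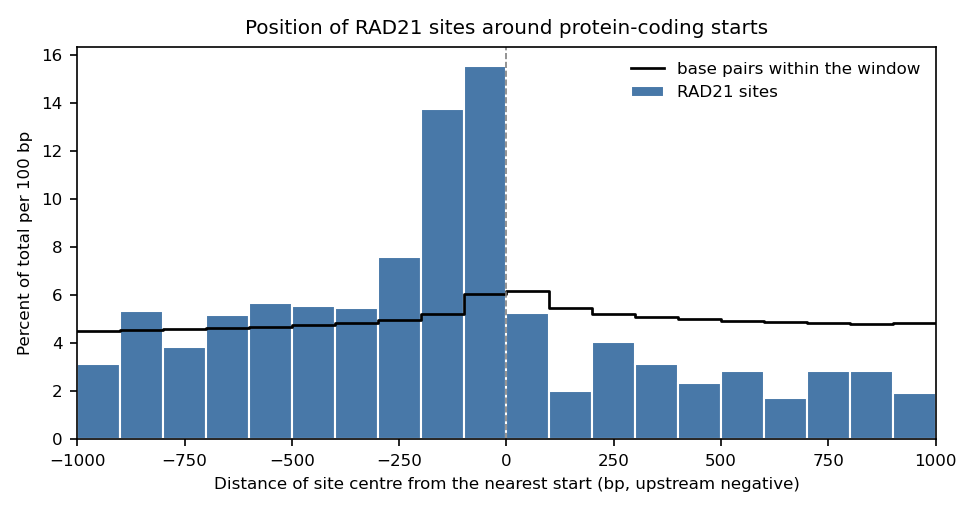
Bars give the percent of the 989 sites per 100 bp of distance between the site centre and the nearest start (bp, upstream negative), and the black line gives the percent of all base pairs of the window in the same bin. The bars exceed the line most in the 200 bp before the start, with 13.8% and 15.6% of the sites, and fall below it in every bin after the start.

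By annotation, 535 sites (54.1%) lay upstream in intergenic DNA, 133 lay upstream of the nearest start but inside the same gene, since many genes have several starts, and 35 lay upstream inside another gene. After the start, 157 sites fell in an intron, 82 in an untranslated exon, 40 in a coding exon and 7 beyond the transcript. For 805 sites (81.4%) the nearest start was within 1 kb of the most upstream start of its gene, compared with 77.4% of all annotated starts. The limit of 1 kb cut through a continuous range. The members farthest from a start were near Lonrf2 at 1000 bp and Efna1 at 995 bp, and the nearest excluded ones were near Brpf1 at 1001 bp and Wdfy3 at 1005 bp.

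Of the 66 sites found in at least 6 replicates, the closest to a start lay 5 bp before a start of Iscu, the scaffold of iron-sulphur cluster assembly, with peaks in 7 replicates. Next came Pcp4, a calmodulin-binding protein of Purkinje cells (17 bp after the start, 6 replicates), Chd9 (22 bp after the start, 8 replicates) and Bcl2l1 (28 bp before the start, 7 replicates). Bcl2l1 encodes the survival protein BCL-XL. It was the only gene with 3 sites within 1 kb of its starts, out of 32 genes with at least 2. Its supported site, at chr2:152657361-152657624, had percentiles of 94.7 and 31.2 in resting replicates 1 and 3, of 1.17 and 17.1 in 48 h replicates 1 and 3, and of 39.8, 33.1 and 96.7 at 96 h. These ranks spread from near the bottom to near the top of the lists, and this site held no motif match. The other 2 Bcl2l1 sites were in the 96 h pooled list alone, held a match each and had no replicate peak.

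Since the matches lay close to the site centres, their side followed that of the sites, with 546 of 757 (72.1%) upstream of the start. The motif was read on the strand of the gene in 357 and on the other strand in 400. Motif matches without regard to RAD21 allowed the comparison to be made the other way round. At a stricter score, exceeded by 2% of control windows, 3290 genes (14.7%) had a match within 1 kb of their most upstream start. The control windows reached 100 bp on either side of their centre, whereas 1 kb on either side was searched here. The 2% therefore does not hold for these genes, and a longer window gives more background matches. Where the best match was upstream, 314 of 2034 (15.4%, interval 13.9% to 17.1%) had a RAD21 site centred within 100 bp of it, and where it was downstream, 103 of 1256 (8.20%, interval 6.74% to 9.86%). The share was 19.0% (117 of 615) for a match in the last 200 bp before the start and 7.03% (18 of 256) in the first 200 bp after it. These intervals cover counting error only, and genes are not independent replicates.

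Genes with a better match more often had a RAD21 site. Both thresholds were set on the shorter control windows, so background matches are more frequent here too. When no window position reached the main threshold, 111 of 11878 genes (0.935%) had a site within 1 kb of the most upstream start. The share was 3.18% between the 2 thresholds and 10.1% for scores (log2 odds against equal base frequencies) from the strict threshold to 16. It was 20.1% from 16 to 18, 15.3% from 18 to 20, and 34.7% (74 of 213) at 20 and above. The rise was thus not steady, since the interval of 12.4% to 18.6% for scores from 18 to 20 reached below and overlapped that of the bin before it, 17.1% to 23.2%. Even at the highest scores most genes had no listed site.

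In the replicate lists, peaks at starts held the motif less often than the other peaks. The other peaks were those on chromosomes not used to learn the motif, whereas peaks at starts were taken from all chromosomes. The share was 80.5%, 84.1% and 83.2% in the resting replicates, 84.0%, 6.77% and 79.3% at 48 h, and 86.0%, 86.9% and 83.8% at 96 h, and for the other peaks of the same lists it was 91.6%, 88.3% and 87.9%, then 89.8%, 3.59% and 84.6%, then 90.9%, 94.9% and 92.6%. Peaks at starts were lower in 8 of 9 replicates, the exception being the second of 48 h. The mean difference was -5.52 percentage points (SD 3.98, n = 9, exact two-sided sign-flip test, p = 0.00781). Without that replicate it was -6.61 (SD 2.43, n = 8, exact sign-flip p = 0.00781). The call was lost with lists of equal length (-2.57, exact p = 0.102) and within 2 kb (-3.03, exact p = 0.0547). Over the merged sites the shares were alike, 76.5% at starts and 76.3% at other sites on chromosomes not used for learning. The mix of time points differed, since sites only at 48 h were 52 of the 989 and 1060 of the 6857 other sites. Within the combinations of time points the share was lower at starts, for example 85.6% compared with 93.8% for sites only at 96 h. The exception was sites only at 48 h, with 7.69% compared with 4.06%. The difference within replicates did not vary between time points beyond the spread (F, exact permutation test, p = 0.404).

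The 232 sites without a match lay at a median distance of 286.5 bp from the start, compared with 338 bp for the sites with one, and 69.4% and 71.6% were upstream. Sites without a match were supported by at least 3 replicates less often (14.7% compared with 26.9%). A run of short tandem repeats of at least 20 bp was present at 41 of them (17.7%) and at 20 (2.64%) of the sites with a match. Sites only in the 48 h list held 30 of the 61 sites with such a run. Only 4 of those 52 sites had a match, and none had 2 replicates. The contrasts in repeats and support were not computed without them. Promoters with the base composition of a CpG island made up 51.4% of the sites' starts (508 of 989) and 44.6% of the most upstream starts of all genes.

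The pooled lists placed the sites in 7 combinations of time points. Sites only in the 96 h list were the most numerous with 424 of the 989, followed by 250 in resting and 96 h cells, 138 in all 3 lists and 84 in resting cells alone. Another 52 were only in the 48 h list, 36 in both stimulated lists and 5 in resting and 48 h cells. Relative to all sites of each combination, the share at starts was highest for sites only in resting cells (84 of 634, 13.2%, interval 10.7% to 16.1%) and for sites in resting and 96 h cells (250 of 2533, 9.87%, interval 8.74% to 11.1%), and lowest for sites only at 48 h (52 of 2127, 2.44%, interval 1.83% to 3.19%). The 96 h sites gave 6.07% and the sites of all 3 lists 5.79%. The order of the combinations by number of sites depended on the length of the lists. Their shares at starts were not computed at equal length. When the pooled lists were limited to the length of the shortest, sites only in resting cells were the most numerous with 203, and those only at 96 h fell to 95. A missing peak does not show that RAD21 was absent, since the lists differ in length and the pooled calls are not always found in a replicate.

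**Figure D3:**
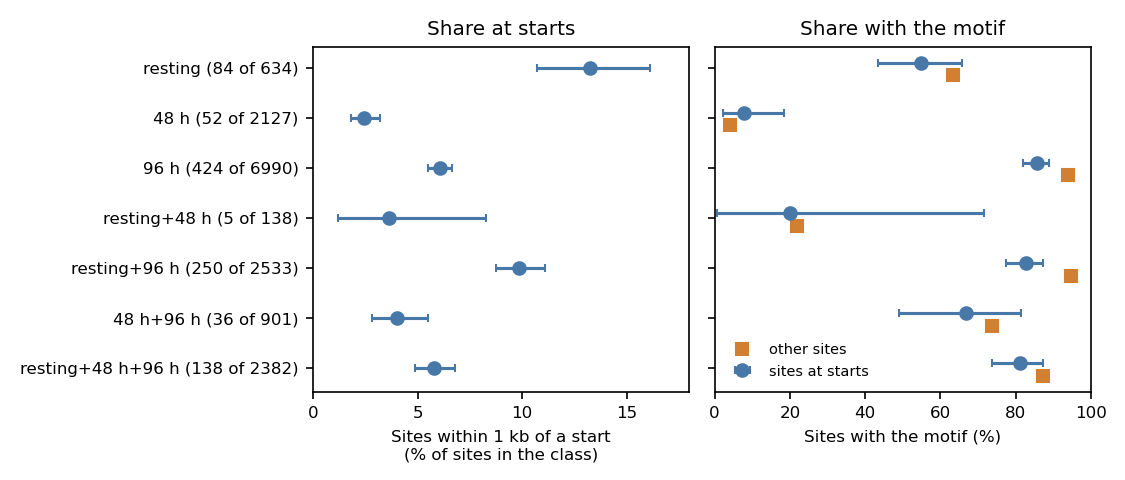
The left panel gives, for each combination of time points, the percent of its sites that lie within 1 kb of a start, and the right panel the percent with the motif at starts (circles) and at other sites on chromosomes not used to learn the motif (squares); bars are exact 95% binomial intervals. Sites only in resting cells have the highest share at starts, 13.2%, and sites only at 48 h the lowest share with the motif, 7.69%.

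The sites only at 48 h differed from the rest in sequence and in support. Only 4 of the 52 held the motif (7.69%), 30 (57.7%) held a tandem repeat run, none was at a bidirectional promoter, and none was supported by 2 replicates. When 48 h pooled peaks supported by the second replicate alone were left out, 11 of these sites remained, and the total at starts fell from 989 to 948. By the rule, the first to be named were those near Mynn (a zinc finger protein), Adam5 and Sacm1l (a phosphoinositide phosphatase), each with a peak only in that replicate, at percentiles of 96.9, 96.1 and 97.1. The 5 sites in resting and 48 h cells included those near 6720456B07Rik (3 replicates), Fbxo31, a subunit of a ubiquitin ligase (2 replicates), and the predicted gene Gm10800 (2 replicates, at percentiles of 2.43 and 0.224).

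Sites only in resting cells had little support. Of these 84, 32 (38.1%, compared with 46.5% away from starts) had a peak in any of the 9 replicates, and 4 in 2. One of these 4 lay 34 bp before the start of Scpep1, a serine carboxypeptidase. It was named first because it had 2 resting replicates, with percentiles of 51.0 and 31.2 in resting replicates 1 and 3. A site 85 bp before the start of Wdr18 was in 1 resting replicate, at percentile 77.3. Of the 424 sites only at 96 h, 242 (57.1%, compared with 59.5% away from starts) had a peak in any of the 9 replicates. That of Pik3cd, for example, had one in a resting replicate and none at 96 h. At least 2 replicates listed 75 of the 424 sites, and at least 3 listed 13. Those near Becn1 (Beclin 1 of autophagy) and Scnn1g (a subunit of the epithelial sodium channel) had a peak in every 96 h replicate. The Becn1 site, 75 bp before the start, ranked at 95.1, 77.1 and 30.2 in these replicates and held no motif match.

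The sites in both the resting and the 96 h list were better supported. Of these 250, 221 (88.4%, compared with 93.0% away from starts) had a peak in any of the 9 replicates, and 94 in at least 3. Those near Tor2a (a torsin ATPase), Ergic1 (a protein of the traffic between endoplasmic reticulum and Golgi) and Fam38a (the mechanosensitive channel PIEZO1) had peaks in all 3 resting and all 3 96 h replicates and in none of 48 h. The Tor2a site, 147 bp before the start, ranked at 88.4, 69.7 and 90.9 in resting cells and at 7.75, 2.76 and 87.7 at 96 h. The Ergic1 site, 121 bp after a start, ranked at 16.4, 26.8 and 84.1 and at 86.5, 86.6 and 88.0. In the stimulated lists alone, the sites near Wbscr28, 5730437N04Rik and Nceh1, a cholesterol ester hydrolase, each had a peak in 3 replicates of 96 h and 1 of 48 h.

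Some sites had a peak in every replicate of one time point but in no replicate of a second one, and their number is given beside the same share over all 15705 sites. Between resting and 48 h cells, 10 sites at starts (1.01%) were in resting cells only, against 0.802% of all sites, and 0 were in 48 h cells only, against 0.0382%. Between resting and 96 h cells, 20 (2.02%) were in 96 h cells only, against 3.83% of all sites, and 0 in resting cells only, against 0.0573%. Between 48 h and 96 h, 47 (4.75%) were at 96 h only, against 5.27%, and 0 at 48 h only, against 0.0191%. With lists of equal length, 5 sites were in 96 h and not in resting cells and 6 the other way round, so that the imbalance between these time points was not seen. Without the second resting replicate, the shortest list, 57 sites were in resting and not in 48 h cells and 9 in resting and not in 96 h cells. With 3 against 3, one site cannot reach an exact p below 0.1, so no site was tested. Among the highest ranked at 96 h and not in resting replicates were those near Fanci, a Fanconi anaemia protein of DNA repair (96.4, 84.1 and 75.2), and Becn1. The resting pooled list nevertheless held a Fanci peak, at percentile 53.3, and the Fanci site carried a tandem repeat run. The site of H2-DMa, a chaperone of MHC class II loading, 263 bp after the start, ranked at 34.0, 51.9 and 90.1 at 96 h and had no 48 h peak.

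The share of peaks at starts differed between time points. It was 8.06%, 8.404% and 8.13% of the peaks in the resting replicates, 5.27%, 2.53% and 5.57% at 48 h, and 6.13%, 6.20% and 6.78% at 96 h. The 3 groups did not overlap, with resting cells the highest and 48 h the lowest. The means were 8.20% ± 0.182, 4.45% ± 1.67 and 6.37% ± 0.361 (SD, n = 3 each), and an exact permutation test of F, which has 1680 ways to arrange 9 replicates, gave p = 0.00357. The pairwise differences were -3.74 percentage points for 48 h minus resting, -1.83 for 96 h minus resting and 1.91 for 96 h minus 48 h, each with an exact two-sided p of 0.1 and the same after Benjamini-Hochberg adjustment over the 3 pairs, which is the smallest p that 3 against 3 allows. Without the second 48 h replicate the groups still did not overlap, the difference for 48 h minus resting was -2.78, and the exact permutation test gave p = 0.00357. When every list was limited to its 821 highest peaks, the means were 7.998%, 4.51% and 6.74% and the same exact test gave p = 0.00714, although resting cells (from 6.94%) and 96 h cells (up to 7.19%) then overlapped. The number of peaks at starts itself depended on the length of the lists. It was 169, 69 and 291 in resting cells, 81, 133 and 87 at 48 h, and 172, 282 and 582 at 96 h, and the time points overlapped (log10 scale, F, exact permutation test, p = 0.111).

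**Figure D4:**
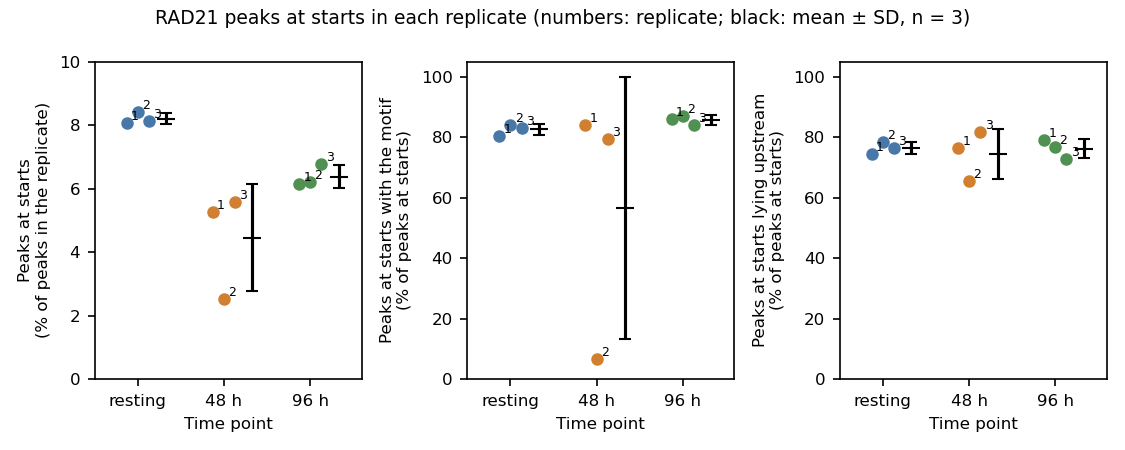
Points are the 9 replicates, numbered, and the black bars give the mean ± SD (n = 3) of each time point, for the percent of peaks at starts (left), the percent of those with the motif (middle) and the percent of those lying upstream (right). Resting replicates sit between 8.06% and 8.404% in the left panel, above all others, and the second 48 h replicate stands alone in the middle panel at 6.77%.

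The motif share of the peaks at starts did not differ between time points past the threshold, with means of 82.6% ± 1.87 in resting cells, 56.7% ± 43.3 at 48 h and 85.6% ± 1.57 at 96 h (SD, n = 3 each; F, exact permutation test, p = 0.0893). The wide spread at 48 h came from its second replicate, and without that replicate the same exact permutation test gave p = 0.243. Without the first 48 h replicate, the exact permutation test gave p = 0.00714.

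Bidirectional promoters were few among the sites. Starts of 2 genes on opposite strands, pointing away from each other and at most 1 kb apart, formed 1080 pairs, and 30 of the 989 sites (3.03%, interval 2.06% to 4.30%) lay within 1 kb of such a start, which is where 4.30% of the base pairs of the window lay. Counted by gene, over all starts of a gene, 79 of 2139 genes with a bidirectional promoter had a site (3.69%, interval 2.93% to 4.58%). Of the 20220 other genes, 923 did (4.56%, interval 4.28% to 4.86%). A site counted by gene need not lie at the bidirectional promoter itself. The motif was found at 28 of the 30 sites at bidirectional promoters, and 12 of the 30 lay between the 2 starts of the pair. The site shared by Atp6v1g2 and Nfkbil1 was the best supported, with 8 replicates. It was followed by the site of Dnajc12, a heat-shock cochaperone (6 replicates), and by those of Entpd1 and Tctn3 (5) and of Parp3 and Rrp9 (5). Entpd1 encodes CD39, the ectoenzyme that hydrolyses extracellular ATP, Tctn3 a protein of the ciliary transition zone, Parp3 a DNA break-response enzyme and Rrp9 a protein of ribosomal RNA processing. The Entpd1 site lay 46 bp after its start and ranked at 58.2 and 75.7 in resting replicates 1 and 3 and at 34.5, 0.824 and 72.4 at 96 h, with no 48 h peak. The site near Gm5468 (4 replicates) and that of the pair of Dos and Atp5d, a subunit of the mitochondrial ATP synthase (3 replicates, 63 bp after the Atp5d start), came next.

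In the replicates, 1 to 21 peaks lay at bidirectional promoters, which was 2.96%, 4.35% and 3.09% of the peaks at starts in resting cells, 2.47%, 1.504% and 1.15% at 48 h, and 3.49%, 3.19% and 3.61% at 96 h. The values at 48 h were the lowest and did not overlap the others. The overall test gave an exact permutation p of 0.0357 (F), but the pairs with 48 h reached only the smallest possible exact p of 0.1, the 48 h counts were 2, 2 and 1 peaks, and leaving out 1 replicate ended the call for the third resting and the third 48 h replicate (exact p = 0.05 each) and for each 96 h replicate (exact p of 0.0714, 0.0679 and 0.0714).

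Genes were then examined in 15 lists, of B cell functions, of functions most cells share and of genes that B cells do not use. Of 435 listed genes found in the annotation, 41 (9.43%) had a site, compared with 4.48% of all protein-coding genes, and at 33 of them a replicate had a peak. With 1 start per gene the shares were 7.36% and 3.68%. Among the lists, B cell homing and adhesion had the highest share with 7 of 18 genes (38.9%, interval 17.3% to 64.3%), and 5 to 9 of its genes had a site under the other settings. The next were B cell receptor and coreceptor signalling with 4 of 22 and B cell identity transcription factors with 4 of 22. The intervals of these 3 lists lay above 4.48%, and those of the other 12 lists included it. The 4 transcription factor genes include Foxp1, whose site was only in the 48 h list and held no motif match. The interval of that list was not computed without Foxp1. The intervals treat genes as independent and are not adjusted for the 15 lists, which were chosen with earlier results of these data known. No list was tested. The 4.48% also includes families with few or no sites, such as 1113 olfactory receptor genes with 0. The signalling count fell to 0 for scores at or above the median of a list and to 2 with lists of equal length or with replicate support, and the transcription factor count fell to 1 with 1 start per gene and to 2 within 500 bp.

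The homing genes encode the receptors and adhesion molecules that guide B cells through spleen and lymph nodes. Itga4, the alpha-4 integrin chain, had a site 114 bp before the start that ranked at 44.7 in resting replicate 1, 15.5 in 48 h replicate 1, and 64.5, 9.15 and 77.9 at 96 h. Only at 96 h was Itga4 found in all 3 replicates. The site of Ccr7, a chemokine receptor for entry into the T cell zone, lay 195 bp before the start, held no motif match and ranked at 36.5 and 79.9 in resting replicates 2 and 3 and at 0.824 in 96 h replicate 2. Cxcr4 had a site 382 bp before the start with 4 replicates, and Cxcr5, the follicle homing receptor, a site 128 bp before the start in 1 resting replicate, at percentile 2.12. S1pr1, the receptor for exit into lymph, had 2 sites, with 1 and 3 replicates. The site of Itgal, the alpha chain of LFA-1, had no replicate peak.

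Among the other B cell lists, Pou2f2, which encodes OCT2, had a site 799 bp before the start that ranked at 15.7, 76.6 and 14.97 in resting cells and at 24.3 and 78.6 in 96 h replicates 2 and 3. Bach2, Bcl11a and Foxp1 had sites with 1, 2 and 1 replicates and no motif match. The signalling genes Cd81, Cr2 and Pik3cd had sites with at most 1 replicate. Tnfaip3, the NF-kB inhibitor A20, had a site 87 bp before a start that ranked at 56.6 in resting replicate 3, 92.7 in 48 h replicate 3, and 83.6, 51.5 and 83.2 at 96 h. Its 96 h ranks were above the median of each list. Nfkb2 and Tirap of the same pathway had sites in a pooled list only. Of the plasma cell genes, Prdm1 (BLIMP-1) and Dnajb9 had 1 replicate each and Xbp1 none. Of the IL-4 genes, Bcl2l1 is described above and Socs1, a feedback inhibitor of cytokine receptors, had 2 sites with 2 and 1 replicates. Among the genes of MHC class II presentation, H2-DMa had a site with 5 replicates, and H2-Ab1 and Ctsh had sites with 1 replicate each.

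In the list of cohesin, its loader, its release factors and CTCF, 3 of 18 genes had a site. The ring subunit Smc3 had a site 486 bp before the start in 96 h replicates 2 and 3, at percentiles of 24.3 and 17.8. Pds5a, a regulator of cohesin release, had one 937 bp after a start with 3 replicates, and Stag1, a subunit of the ring, one 2 bp after a start with 1 replicate. Among genes that most cells use, sites were found at 4 of 70 cytosolic ribosomal protein genes (5.71%), 2 of 38 for the cell cycle and DNA replication (5.26%), 2 of 32 for Mediator (6.25%), 1 of 40 for histone lysine methylation (2.5%) and 1 of 51 for splicing (1.96%). Among these, the site of Mcm5, a subunit of the replicative helicase, had 5 replicates. Only Lig4 of 26 genes for class switching and DNA break repair had a site, with no replicate peak. In the list of sensory, crystallin and casein genes, which B cells do not use, only Opn1sw of 23 had a site, with a peak in the second 48 h replicate alone and no motif match.

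**Figure D5:**
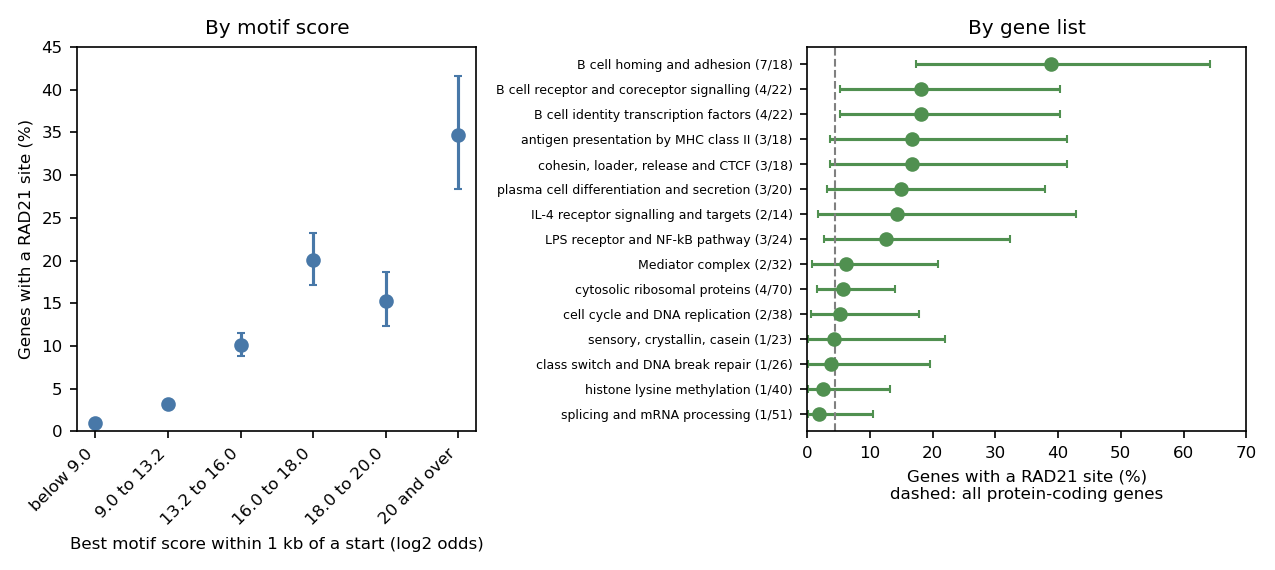
The left panel gives the percent of genes with a RAD21 site by the best motif score (log2 odds) within 1 kb of the most upstream start, and the right panel the percent in each gene list with the number of genes in brackets; bars are exact 95% binomial intervals and the dashed line marks 4.48%, the share of all protein-coding genes. The share reaches 34.7% in the highest score bin, and homing and adhesion is the list with the highest share, 38.9%.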

How the data were processed

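The data were ChIP-Seq peak lists for RAD21 at 3 time points with 3 replicates each, plus a pooled list per time point. According to the study's methods, reads were aligned to mm9 with Bowtie 2, 7000000 unique positions were drawn per library, and peaks were called against input with MACS 2 at a false discovery rate of 0.05, in each replicate and on pooled samples. The deposited lists give a position and a score for each peak, and the statistic behind this score is not given in the sources used here. Read depth is not in the lists.

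Starts were taken from GENCODE M1 on NCBIM37 (the mm9 assembly), 46015 starts of 51710 protein-coding transcripts. Peaks were merged with a minimum overlap of 1 bp, and a replicate supported a site when its peak shared 1 bp with it. The motif was learned on 10 chromosomes at sites in at least 6 replicates away from starts, and its threshold was met by 5% of control windows. Time points were compared by exact permutation of the replicate labels and paired differences within replicates by exact sign-flip tests, both two-sided, with Benjamini-Hochberg adjustment over the 3 pairs of time points. Intervals are exact binomial (Clopper-Pearson).

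Named sites were those with the most replicates, also in each combination of time points and at bidirectional promoters, the nearest to a start, the highest ranked of those found in all replicates of one time point only, and any gene of the 15 lists; some of these items are not reported here. The members, lists and tests were chosen with earlier results of these data known, and the split by motif position was added after the values were seen. Same-numbered replicates of different time points did not deviate together (correlations -0.137 to 0.227 over sites), so the numbers were not used as pairs. Scripts used Python 3.11.15, numpy 2.4.6, scipy 1.17.1 and pysam 0.24.0, and were tested on simulated data.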

Additional observations from a re-analysis of the deposited data

How the results depend on the processing

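The share of peaks at starts kept its order of time points and an exact permutation p below 0.05 under every setting tried (F 6.96 to 69.0 with one replicate left out), and no time-point difference in upstream share appeared. The number of sites was 641 within 500 bp, 1608 within 2 kb, 503 with scores at or above the median of their list, 650 with lists cut to equal length and 325 when pooled peaks needed 2 replicates. Other results moved as follows; the cause was not tested.

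With lists of equal length, the number of peaks at starts differed between time points (F 14.6, exact permutation p = 0.00714). The difference for 96 h minus resting turned to -0.0729 on the log10 scale. Every list then held 821 peaks, so this number is the share at equal length on another scale and not a separate result. At these lengths the score difference turned to 6.73 percentiles (exact sign-flip p = 0.0156), support to 0.484 points, and the motif difference lost its call at -2.57 points (exact p = 0.102), as it did within 2 kb at -3.03 (exact p = 0.0547). The score difference was 0.847 within 500 bp and 3.93 for scores above the median, and the width difference 0.833 bp within 500 bp. With one replicate left out, support ranged from -2.87 to 0.149 (the latter without the second of 48 h) and width from -1.88 to 0.25.

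The bidirectional F weakened to 2.52 within 500 bp, 0.759 for scores above the median and 0.359 at equal length, with 4.63 to 12.7 over single replicates left out. Its difference for 96 h minus resting turned to 0.586 with one start per gene and 1.12 at equal length, for 48 h minus resting to 0.0558 at equal length, and for 96 h minus resting it ranged from -0.291 to 0.404 with one replicate left out (0.404 and 0.0819 without the second resting and the second 96 h replicate). The motif F passed the threshold within 2 kb (1.31) and for any overlap with the window (1.21), and ranged from 0.904 to 2.51 with one replicate left out. Sites at starts in all replicates of one time point and none of another were 77 when summed over the 6 directions, in which a site may count more than once, 134 within 2 kb, 49 for scores above the median, 23 at equal length and 78 to 239 with one replicate left out, the most without the first of 96 h, since fewer replicates must then have a peak. Listed genes with a site fell to 23 for scores above the median.

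The replicate numbers do not pair the samples. With the replicate block, the bidirectional F was 3.17 (exact p = 0.111) and the motif difference kept its value of -5.52 with 3 blocks (p = 0.25, the smallest possible); no other call changed under the block. Peak lists without depth limit all counts to what each list reports.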

Other observations

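Gene families formed by symbol, chosen after the values were seen, differed in how many members had a RAD21 site within 1 kb of a start. Of 1113 olfactory receptor genes 0 had a site (exact 95% interval up to 0.331%), of 328 vomeronasal receptor genes 1 did (Vmn1r20, with no replicate peak), and of 97 keratin genes 0 did (interval up to 3.73%). Predicted genes with Gm symbols had a site in 38 of 2022 (1.88%) and solute carriers in 21 of 355 (5.92%). Zinc finger genes with Zfp symbols had a site in 12 of 371 (3.23%), and mitochondrial ribosomal protein genes in 5 of 77 (6.49%). All protein-coding genes had a site in 4.48%.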
